A study of Mus musculus with 12 samples.

Results

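The cluster of mmu-mir-183, mmu-mir-96 and mmu-mir-182 (mir-183, mir-96 and mir-182 in what follows) is a group of 3 miRNA hairpins that lie close together on one strand of mouse chromosome 6. The 3 members were taken by their hairpin names out of the 1050 miRBase hairpins that had reads in any of the 12 small RNA libraries, by a rule that uses no measured value. Mature sperm was released from the epididymis of C57BL6/J males fed a control diet (CD, 16% of kcal as fat on the labels, 3 libraries) or a high-fat diet (HFD, 69% of kcal as fat on the labels, 3 libraries) for 7 weeks from 4 weeks of age. The ages and fat contents are those of the labels, and the study's own text gives a lower fat content for the HFD and, in a figure legend, a later start of the diets. Each sperm library was a pool of 3 sperm samples. TM4 cells, a mouse Sertoli cell line, were non-treated (Ctrl, 2 libraries), treated with Compound C, an inhibitor of the kinase AMPK, at 10 µM for 12 h (CC, 2 libraries), or made to overexpress the ribonuclease angiogenin from a plasmid with its full-length coding sequence (Ang OE, 2 libraries). The Ctrl libraries serve both treatments, and nothing in the labels says that the replicates of the TM4 cells came from separate cultures, so p-values there measure the spread between these libraries alone. The question asked of the cluster was whether its 3 members move together.

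A miRNA hairpin is cut by Drosha and then Dicer, and a strand of the product is loaded into an Argonaute protein, where the seed near its 5′ end pairs with target mRNAs. Hairpins of one cluster can be transcribed as one precursor and released from it one by one, so their mature levels depend on transcription, which they share, and on processing and turnover, which they need not share. The cluster is conserved among vertebrates and is best known from sensory cells, where mutations in the seed of miR-96 cause hearing loss in mice and humans. Its members are also found in many epithelia and in tumors.

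In the RefSeq sequences on build GRCm38.p6, the same build as the authors' mm10, all 3 hairpins lie on the minus strand of chromosome 6. In the order of transcription they are mir-183 at chr6:30169668-30169737, mir-96 at chr6:30169446-30169551 and mir-182 at chr6:30165918-30165992. Between mir-183 and mir-96 lie 116 bases, between mir-96 and mir-182 lie 3453 bases, and the whole cluster spans 3820 bases. RefSeq places them within the long non-coding RNA gene Mirc35hg, from 30158640 to 30174125 on the same chromosome. In the GENCODE vM39 annotation, which is on another build and was used for names and overlaps alone, 1 of the 16 transcripts of Mirc35hg spans each hairpin with an intron, and mir-183 also overlaps 5 bases of an exon of another transcript.

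The mature miRNAs of the 5′ arms are printed here, 5′ to 3′, because their seeds set which targets the members can share. Capitals mark the seed, bases 2 to 8.
mmu-miR-183-5p: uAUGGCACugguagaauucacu
mmu-miR-96-5p: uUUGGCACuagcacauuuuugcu
mmu-miR-182-5p: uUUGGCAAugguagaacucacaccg

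The 3 seeds are alike but not the same. Counted from 1 at the 5′ end, the seed of miR-96-5p departs from that of miR-183-5p by A2U, the seed of miR-182-5p departs from that of miR-96-5p by C8A, and miR-183-5p and miR-182-5p differ by both. Over the whole length the closest pair is miR-183-5p and miR-182-5p, with 18 of 22 bases identical, against 13 of 22 for miR-183-5p and miR-96-5p and 12 of 23 for miR-96-5p and miR-182-5p. Among 1679 mature mouse miRNAs in the RefSeq table, no other shares the seed of miR-183-5p or of miR-182-5p. The seed of miR-96-5p is shared by miR-1271-5p, for whose hairpin no reads were listed in these libraries. The deposited tables count reads per hairpin, so the 5′ arm and the 3′ arm of a member are added together in every value that follows. For completeness, the 3′ arms, again with bases 2 to 8 in capitals, share no seed among themselves.
mmu-miR-183-3p: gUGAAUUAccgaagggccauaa
mmu-miR-96-3p: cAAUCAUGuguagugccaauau
mmu-miR-182-3p: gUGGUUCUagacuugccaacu

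Between 11412945 and 14822686 reads per library matched miRBase in sperm and between 27651384 and 35704399 in TM4 cells. Levels are given as CPM, the reads of a hairpin per 1000000 miRBase reads of its library, and ratios between members are ratios of reads of mature miRNAs of nearly one length, with no division by length. Replicates differed by more than counting noise in every group, and HFD replicate 1 stood apart from the other HFD libraries (chi-square per degree of freedom over hairpins 993 and 1241, against 256 between HFD replicates 2 and 3). Lists of hairpins known from other cell types were measured beside the cluster. In sperm, 8 epithelial hairpins summed to between 15080 and 21069 CPM and 3 red blood hairpins to between 13696 and 26658 CPM, while 12 germ cell hairpins summed to between 3860 and 11286 CPM. The most abundant hairpins of all lists in sperm were mir-143, mir-486a and mir-204. In TM4 cells the epithelial hairpins summed to between 2.95 and 5.35 CPM, the mesenchymal hairpins to between 21698 and 28001 CPM, and the most abundant were mir-143, mir-199a-2 and mir-199a-1. No hairpin that defines Sertoli cells was on the lists, so the label of the TM4 cells was not checked in this way, and the part that other cell types play in the sperm levels was not tested.

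mir-182 was the most abundant member in every library and mir-96 the least. In sperm, mir-182 ranked between 6 and 8 among all hairpins, mir-183 between 50 and 52, and mir-96 between 140 and 173. In TM4 cells mir-182 again ranked 6 or 7, mir-183 between 9 and 12, and mir-96 between 108 and 138. The cluster as a whole took 2.18% to 2.59% of the miRBase reads in the sperm libraries. In Ctrl TM4 cells its share was 6.93% and 5.91%, with CC it was 8.34% and 8.12%, and with Ang OE it was 5.87% and 5.75%.

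The levels of mmu-mir-183 were 1083, 1242 and 1121 CPM in CD sperm and 1269, 1070 and 1339 CPM in HFD sperm. In TM4 cells they were 19794 and 15747 CPM in Ctrl, 22175 and 27033 CPM in CC, and 16192 and 15487 CPM in Ang OE. For this member the diets overlapped, Ang OE and Ctrl overlapped, both CC libraries were above all other libraries, and all TM4 libraries were far above all sperm libraries.

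The levels of mmu-mir-96 were 48.7, 49.0 and 47.5 CPM in CD sperm and 36.6, 58.3 and 83.1 CPM in HFD sperm. In TM4 cells they were 110 and 104 CPM in Ctrl, 120 and 143 CPM in CC, and 241 and 235 CPM in Ang OE. The groups of TM4 cells did not overlap, with Ang OE highest, and the HFD libraries lay on both sides of the CD libraries. The lowest of these values, 36.6 CPM in HFD replicate 1, rests on 510 reads, with a Wilson 95% interval from 33.5 to 39.9 CPM that covers counting error only.

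The levels of mmu-mir-182 were 22473, 20476 and 22884 CPM in CD sperm and 22360, 24802 and 23631 CPM in HFD sperm. In TM4 cells they were 49396 and 43201 CPM in Ctrl, 61116 and 54026 CPM in CC, and 42235 and 41784 CPM in Ang OE. The diets overlapped, and CC was highest and Ang OE lowest among the TM4 cells, without overlap in CPM.

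**Figure D1:**
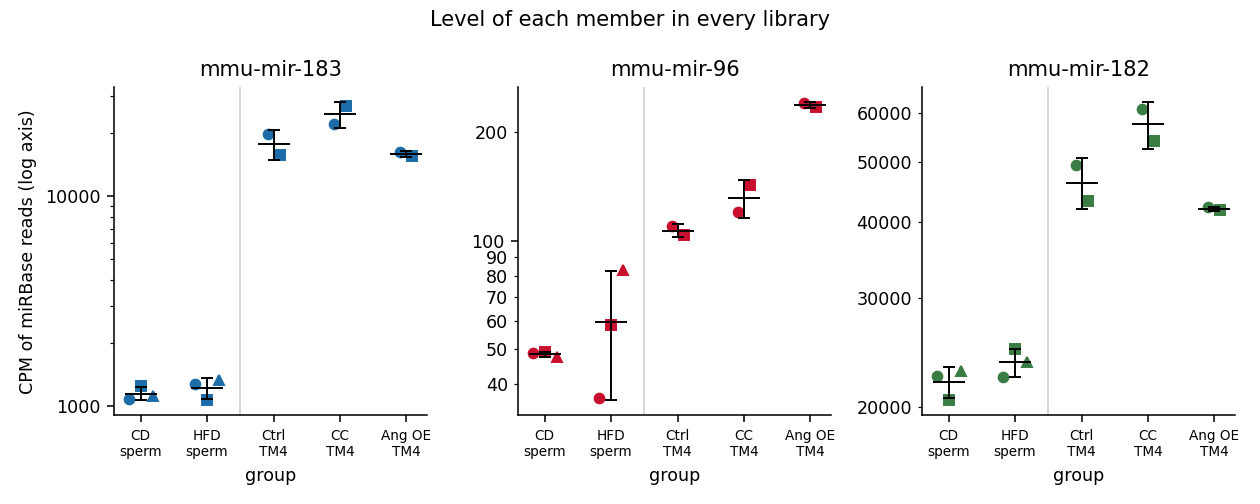
Level of mir-183, mir-96 and mir-182 in each of the 12 libraries, in CPM of miRBase reads on a log axis, by group. Points are libraries, with the shape marking the replicate number, and black bars are the mean ± SD (n = 3 in sperm and n = 2 in TM4 cells). mir-183 lies between 1070 and 1339 CPM in sperm and between 15487 and 27033 CPM in TM4 cells, and mir-96 is highest in the Ang OE libraries, at 235 and 241 CPM.

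The first comparison asked whether HFD feeding changed the cluster in sperm. None of the 3 members passed the test. Fitted with edgeR and adjusted over all 451 hairpins, the log2 fold change of HFD over CD was -0.02 ± 0.15 (SE) for mir-183, 0.18 ± 0.29 for mir-96 and -0.01 ± 0.17 for mir-182, with an adjusted p of 0.989 for each. The background was the same, since 0% of the hairpins tested were called at an adjusted p under 0.05 (31 had an unadjusted p under 0.05, and DESeq2 called 8). The diets overlapped in CPM for all 3 members, and 6.21% of the hairpins tested were free of overlap. The approximate 95% intervals of the log2 fold change ran from -0.31 to 0.28 for mir-183 and from -0.35 to 0.33 for mir-182. The interval of mir-96 was wider, from -0.39 to 0.75. They rest on a normal approximation and are too narrow for so few libraries, so changes of at least these sizes remain possible.

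The wide interval of mir-96 came with the spread of its HFD libraries, whose SD was 23.3 CPM around a mean of 59.3 CPM, against 0.781 CPM around 48.4 CPM in CD sperm. Without HFD replicate 1 the log2 fold change of mir-96 was 0.52 (adjusted p = 0.234 by edgeR), and without HFD replicate 3 it was -0.04 (adjusted p = 0.997), so its direction rested on which library was kept. Without HFD replicate 1, mir-183 was at 0.05 and mir-182 at 0.12. Among the HFD libraries the summed epithelial hairpins were in the same order as mir-96, at 15080, 17046 and 21069 CPM in replicates 1, 2 and 3, and so were the smooth muscle hairpins, at 30632, 52023 and 56144 CPM, and the mesenchymal hairpins, at 2402, 2591 and 2791 CPM. The red blood hairpins were in the reverse order, at 26658, 19355 and 13696 CPM. The germ cell, white blood and sensory and neural hairpins were in neither order. With only 3 libraries such orders match easily, and nothing is read from them. None of the 42 listed hairpins that were tested was called between the diets, and the part of these cells in the level of mir-96 was not tested.

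The next comparison asked how the cluster differed in TM4 cells treated with CC. No library of a vehicle or of another AMPK inhibitor is in the series. AMPK inhibition thus cannot be told apart from other effects of CC. All 3 members were higher in both CC libraries than in both Ctrl libraries, beside 46.9% of the 533 hairpins tested that had no overlap in either direction. The log2 fold change was 0.48 ± 0.11 (SE) for mir-183, 0.32 ± 0.10 for mir-182 and 0.31 ± 0.12 for mir-96. By edgeR, mir-183 rose (adjusted p = 0.0220), a change of 1.39-fold that ranked 63 among the 533 from the highest rise down, whereas mir-182 (adjusted p = 0.0903) and mir-96 (adjusted p = 0.184) did not pass the threshold. Across all hairpins tested, 4.13% were called. The call of mir-183 rested on single libraries. Without CC replicate 1, CC replicate 2 or Ctrl replicate 2 its log2 fold change was 0.58, 0.34 or 0.34 and its adjusted p was 0.0693, 0.320 or 0.258, and no hairpin at all was called when either CC library was left out. The authors used ComBat-seq on the cell line data against differences in technical processing, without naming the batches. Here the replicate number was assumed as the batch. With it mir-183 was not called (0.49, adjusted p = 0.0599 by edgeR) and mir-182 was (0.33, adjusted p = 0.0450). A batch that coincides with a treatment cannot be told apart from it. mir-182 was also called with no filter on low counts (0.36, adjusted p = 0.0139).

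Whether the members moved unequally with CC was tested on their ratios. For this the reads of one member served as the library size, a test chosen after seeing the data. The fold change of another member then becomes that of their ratio. The spread behind its p-value is borrowed from all hairpins, which then share the noise of the reference member. The size of a small p from these tests is therefore not exact. In CC against Ctrl the log2 ratio of mir-182 to mir-183 changed by -0.14 ± 0.21 (adjusted p = 0.628 by edgeR), with a 95% interval from -0.56 to 0.28. The ratio of mir-96 to mir-183 changed by -0.18 ± 0.24 (adjusted p = 0.580), and that of mir-96 to mir-182 by -0.003 ± 0.18 (adjusted p = 0.990). The intervals of these ratios ran from -0.66 to 0.30 and from -0.35 to 0.35. All are approximate and too narrow for 2 libraries a group, and unequal changes within them are not excluded. Of the listed hairpins, mir-205 of the epithelial list and mir-486a of the red blood list fell in CC, beside 1.88% of all hairpins tested that were called as lower, both lists being low in TM4 cells (2.95 to 5.15 CPM and 942 to 1433 CPM in sum over the Ctrl and CC libraries), and their part in the result was not tested.

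With Ang OE the members parted. mir-96 rose 2.70-fold over Ctrl, while mir-183 and mir-182 did not pass the threshold. Ctrl cells were non-treated, and no library of cells with an empty plasmid is in the series. In every comparison with Ang OE, angiogenin thus cannot be told apart from the plasmid and its delivery. In edgeR the log2 fold change of mir-96 was 1.43 ± 0.12 (SE), with an adjusted p of 1.27e-07, and it ranked 17 of 533 from the highest rise down. mir-183 was at 0.11 ± 0.11 (adjusted p = 0.468) and mir-182 at 0.14 ± 0.10 (adjusted p = 0.311). Calls were common in this comparison, at 38.3% of hairpins, and 70.4% had no overlap in CPM, among them mir-96 and mir-182 but not mir-183. The scaling mattered for the other two members. In CPM mir-182 was lower in both Ang OE libraries than in Ctrl, and with all miRBase reads as library size mir-183 and mir-182 were at -0.17 and -0.14. That scaling moved the median of all hairpins from 0.06 to -0.21, and the calls from 129 higher and 75 lower to 81 higher and 139 lower. mir-96 was called as higher under each of the 15 alternatives, at 1.16 to 1.46 on the log2 scale.

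The ratios within a library, which no scaling of the library can move, showed the same parting. The ratio of mir-96 to mir-183 rose by 1.31 ± 0.25 on the log2 scale in Ang OE against Ctrl (edgeR adjusted p = 3.43e-06), and that of mir-96 to mir-182 rose by 1.30 ± 0.18 (adjusted p = 0.000230). Both calls held with each of the 6 TM4 libraries left out in turn, where the highest adjusted p was 0.00442 and 0.0160. The ratio of mir-182 to mir-183 stood at 0.02 ± 0.21 (adjusted p = 0.960), with an interval from -0.40 to 0.44. As a share of the reads of the cluster, mir-96 was at 0.412% and 0.409% in the Ang OE libraries, at 0.159% and 0.175% in Ctrl and at 0.144% and 0.176% in CC.

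Other hairpins moved in the Ang OE libraries along with mir-96, and over all hairpins tested 24.2% were called as higher than in Ctrl and 14.1% as lower. mir-143, the most abundant listed hairpin, had a mean of 110497 CPM in Ang OE against 51449 CPM in Ctrl. Of the 12 germ cell hairpins 5 were tested and 4 rose (mir-34b, mir-34c, mir-449a and mir-871), with a summed level of 1932 to 2045 CPM in Ang OE against 1017 to 1050 CPM in Ctrl. mir-34c made up most of that sum, and mir-880 and mir-743a had no reads in either group. Of the 8 sensory and neural hairpins 5 were tested and 3 rose, the 3 near-identical copies of mir-9, whose reads cannot be told apart, and the list summed to 6.37 to 7.50 CPM in Ang OE against 3.30 to 3.47 CPM in Ctrl. mir-124-1, mir-124-2 and mir-124-3, which define neurons, had no reads in Ctrl. Of the other lists, 2 of 3 smooth muscle hairpins tested rose, 1 of 3 white blood hairpins rose, 1 of 6 mesenchymal hairpins rose and 3 fell, 1 of 2 red blood hairpins fell, and none of 5 epithelial hairpins was called. These counts are with TMM scaling. With the library size taken as all miRBase reads or as the clean reads without rRNA, mir-871, mir-199b, mir-145a and mir-155 were not called. With all miRBase reads mir-34b was not called either, and mir-150 of the white blood list was called as lower. With DESeq2 mir-871 alone of the listed hairpins lost its call. The part of these hairpins in the result was not tested.

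Ang OE was also set against CC, which shares no library with it. mir-96 was higher in Ang OE by 1.13 ± 0.12 on the log2 scale (edgeR adjusted p = 1.32e-06). mir-183 was lower, at -0.37 ± 0.11 (adjusted p = 0.0166), and mir-182 was at -0.19 ± 0.10 (adjusted p = 0.154). In this comparison 41.5% of hairpins were called (26.3% higher and 15.2% lower) and 72.8% had no overlap in CPM, all 3 members included. With TMM, 3 of 5 germ cell, 3 of 5 sensory and neural, 1 of 5 epithelial (mir-205) and 1 of 3 smooth muscle hairpins were higher. Of 6 mesenchymal hairpins 3 were higher and 2 lower, and no red or white blood hairpin was called. Some of these calls changed with other scalings, and their part in the result was not tested. The call of mir-183 was lost without CC replicate 2, at -0.23 (adjusted p = 0.209), and mir-182 passed the threshold with DESeq2, with all miRBase reads, with the clean reads without rRNA, and with a filter of 100 reads, at -0.28 to -0.45. The ratio of mir-96 to mir-183 was higher in Ang OE by 1.49 ± 0.25 (adjusted p = 2.97e-08) and that of mir-96 to mir-182 by 1.30 ± 0.18 (adjusted p = 7.67e-05), and the ratio of mir-182 to mir-183 differed by 0.16 ± 0.21 (adjusted p = 0.588).

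**Figure D2:**
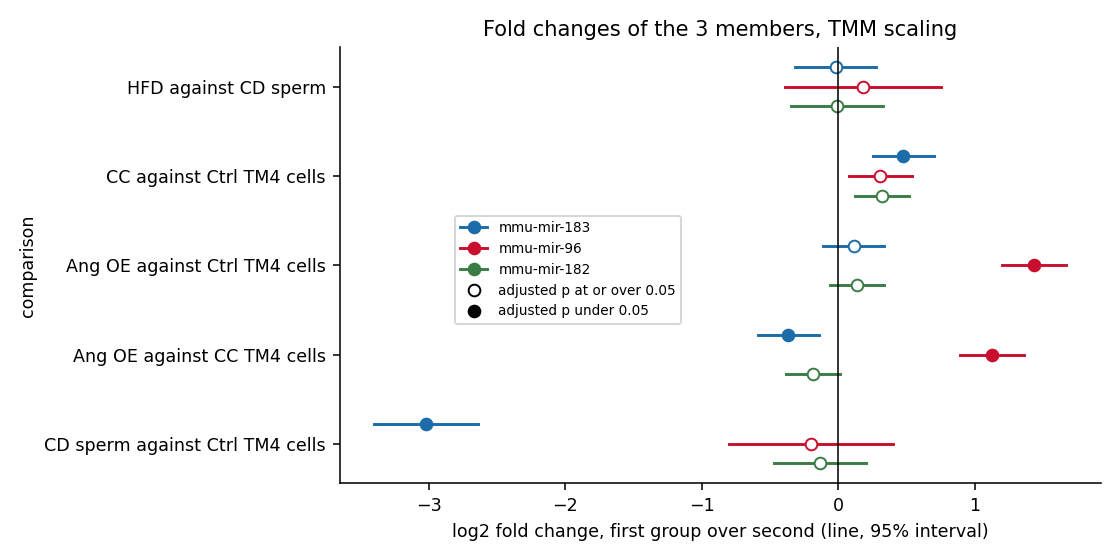
Log2 fold change of each member in the 5 comparisons, from edgeR with TMM scaling. Lines are approximate 95% intervals from a normal approximation, which are too narrow for so few libraries. Filled circles have an adjusted p under 0.05. The 3 members lie together for HFD and for CC, mir-96 alone is far to the right in both Ang OE comparisons (1.43 and 1.13), and mir-183 alone is far to the left in CD sperm against Ctrl TM4 cells (-3.02).

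The last comparison set CD sperm against Ctrl TM4 cells. Here the source of the RNA and its preparation cannot be told apart, nor can fewer cells of a type be told from less RNA per cell. Mean CPM in Ctrl was 2.21 times that in CD sperm for mir-96, 2.11 times for mir-182 and 15.5 times for mir-183. mir-183 thus differed most, at a mean of 1149 ± 83.1 CPM (SD, n = 3) in CD sperm and 17770 ± 2861 CPM (SD, n = 2) in Ctrl. With TMM scaling its log2 fold change was -3.02 ± 0.19 (SE), with an edgeR adjusted p of 1.91e-09. mir-182 was at -0.13 ± 0.17 (adjusted p = 0.476) and mir-96 at -0.20 ± 0.31 (adjusted p = 0.552). Calls were the rule between these sources, at 78.9% of 648 hairpins, with 90.9% free of overlap in CPM, all 3 members included. mir-183 was called as lower in sperm under all 19 alternatives, at -4.18 to -2.51. The other members depended on the scaling and on which libraries were kept. With all miRBase reads as library size mir-182 was called as lower in sperm at -1.08 and mir-96 at -1.14, whereas with DESeq2 they were at 0.37 and 0.30, and the median of all hairpins moved from -0.44 with TMM to -1.37 and 0.06. Without CD replicate 2 mir-182 was called as higher in sperm, at 0.46 (adjusted p = 0.0192 by edgeR), and mir-96 was at 0.33, with the median of all hairpins at 0.01 and 256 calls higher against 185 lower. The calls split into 240 higher and 271 lower with TMM, 201 and 357 with all miRBase reads, and 265 and 194 with DESeq2.

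A ratio within a library does not depend on the scaling. In sperm, mir-182 had 16.5 to 23.2 times the reads of mir-183 in every library of either diet, and in TM4 cells 2.00 to 2.76 times. On the log2 scale the ratio was 4.26 ± 0.19 (SD, n = 6) in sperm and 1.34 ± 0.18 (SD, n = 6) in TM4 cells, a difference of 2.92 with no overlap (exact permutation test, 2-sided, p = 0.00216, the smallest that 6 against 6 can give, adjusted p = 0.00649 over 6 tests). The log2 ratio of mir-96 to mir-183 was -4.50 ± 0.39 in sperm and -6.99 ± 0.73 in TM4 cells, higher in sperm by 2.48 (exact permutation p = 0.00216, adjusted p = 0.00649). The ratio of mir-96 to mir-182 was -8.77 ± 0.36 in sperm and -8.33 ± 0.69 in TM4 cells (exact permutation p = 0.219, adjusted p = 0.437). These tests pool both diets in sperm, and Ctrl, CC and Ang OE in TM4 cells. The libraries of a source are thus not replicates of a single condition, and the p-values describe these libraries alone. For mir-96 to mir-182 the TM4 mean mixes Ang OE, at -7.45 and -7.47, with Ctrl and CC, at -8.99 to -8.56. No likeness of the sources is read from that test. For CD against Ctrl alone, the edgeR ratio tests gave 2.87 ± 0.22 for mir-182 to mir-183 (adjusted p = 5.27e-09), 2.80 ± 0.31 for mir-96 to mir-183 (adjusted p = 4.79e-07) and -0.06 ± 0.29 for mir-96 to mir-182 (adjusted p = 0.849). Within the cluster, mir-183 made up 4.13% to 5.71% of the reads in sperm and 26.6% to 33.3% in TM4 cells, and mir-182 94.1% to 95.6% and 66.5% to 73.3%.

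Between the diets no ratio passed the test. The log2 ratio of mir-182 to mir-183 was 4.27 ± 0.23 in HFD and 4.26 ± 0.19 in CD sperm (SD, n = 3 each, exact permutation p = 1), and the ratios of mir-96 to mir-183 and to mir-182 were higher in HFD by 0.13 and 0.11 (exact permutation p = 0.8 for each). With 3 against 3 the smallest p this test allows is 0.1, so it could not have passed the threshold. The edgeR ratio tests, which have no such limit, gave 0.02 ± 0.18 for mir-182 to mir-183, 0.20 ± 0.29 for mir-96 to mir-183 and 0.18 ± 0.32 for mir-96 to mir-182, with adjusted p from 0.994 to 1.00.

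**Figure D3:**
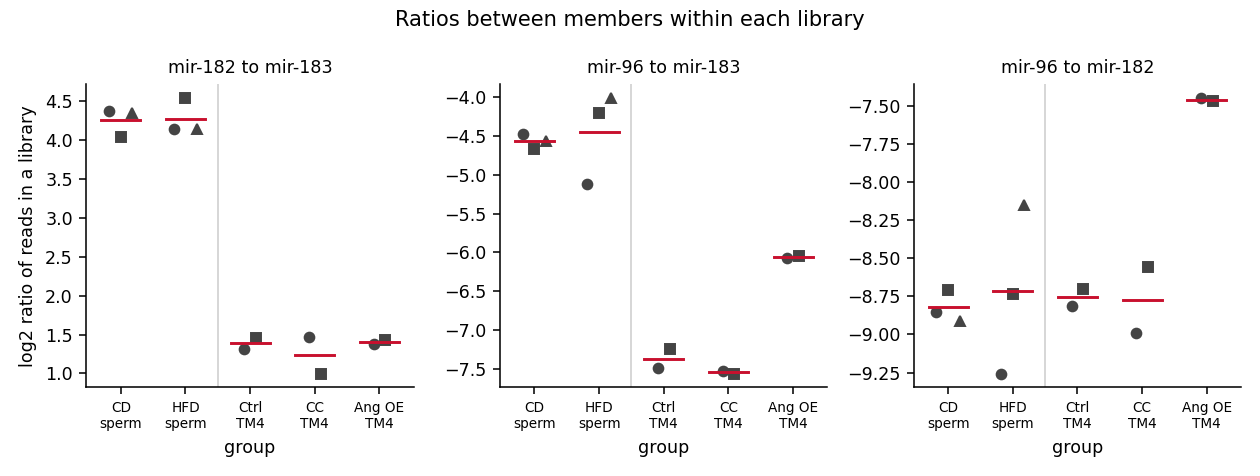
Log2 ratio of the reads of one member to those of another in each library, by group, with points for libraries and red bars for group means. The ratio of mir-182 to mir-183 lies above 4 in sperm and below 1.5 in TM4 cells, and both ratios with mir-96 on top are higher in Ang OE than in Ctrl and CC.

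Over all hairpins tested in CD sperm against Ctrl TM4 cells, 37.0% were called as higher in sperm and 41.8% as lower. Beside these shares, all 8 epithelial, all 12 germ cell and all 3 red blood hairpins were called as higher in sperm, and all 6 mesenchymal hairpins as lower. Of the 4 smooth muscle hairpins 2 were called as higher and 1 as lower, of the 4 white blood hairpins 3 as higher and 1 as lower, and of the 8 sensory and neural hairpins 5 were tested and 5 were called as higher. Of the 33 listed hairpins called as higher, 13 passed the filter on low counts only through sperm, 7 of them germ cell and 3 epithelial, so that they could be called in no other direction. With DESeq2 mir-145a lost its call as lower and mir-143 was called as higher, and the other calls of the lists were the same with each of the 3 other scalings. The lowest and highest sums over both groups were 5.07 and 18672 CPM for the epithelial, 1017 and 11286 CPM for the germ cell, and 2052 and 28001 CPM for the mesenchymal list. Their part in the levels of the members was not tested.

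Whether the 3 members move together from library to library was then described within each source, on log2(CPM + 1) over 6 libraries. In sperm no relation passed the test. Pearson's r was -0.32 for mir-183 with mir-182 (Spearman's rho -0.31), 0.23 for mir-183 with mir-96 (rho 0.03) and 0.46 for mir-182 with mir-96 (rho 0.54). By exact permutation the p was 0.550, 0.667 and 0.338 for r and 0.564, 1 and 0.297 for rho, and each p of r was 0.667 after adjustment over the 4 relations computed. For the deviations from the diet means, r was -0.75, 0.14 and 0.37, against a median of 0.18 over all pairs. For comparison, the median r over all pairs of the 257 hairpins with a mean of at least 100 reads was 0.15. Without the 2 libraries farthest from the median of the first-named member, r became -0.55, -0.62 and 0.94, so that the relation of mir-183 with mir-96 turned in sign. The members' levels in sperm varied little, apart from mir-96 in HFD.

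In TM4 cells mir-183 and mir-182 had r = 0.86 and rho = 0.89 over the 6 libraries, against a median r of 0.05 over all pairs of 307 hairpins, of which 11.9% had a higher r. The exact permutation p was 0.0222 for r and 0.0333 for rho, and 0.0889 and 0.133 after adjustment over the 4 relations, so the relation did not pass the threshold. Without both CC libraries, the farthest from the median of mir-183, r was 0.98. These points share the differences between Ctrl, CC and Ang OE. For the deviations from the group means r was 0.12 for mir-183 with mir-182, 0.87 for mir-183 with mir-96 and -0.39 for mir-182 with mir-96, against a median of 0.07 over all pairs. With 2 libraries in each of 3 groups these deviations hold only 3 independent values, and no order of the pairs is read from them. mir-96 gave no pooled correlation, because the Ang OE libraries stood apart from the other 4 by a gap of 58.9% of its range, a criterion chosen after seeing the data.

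**Figure D4:**
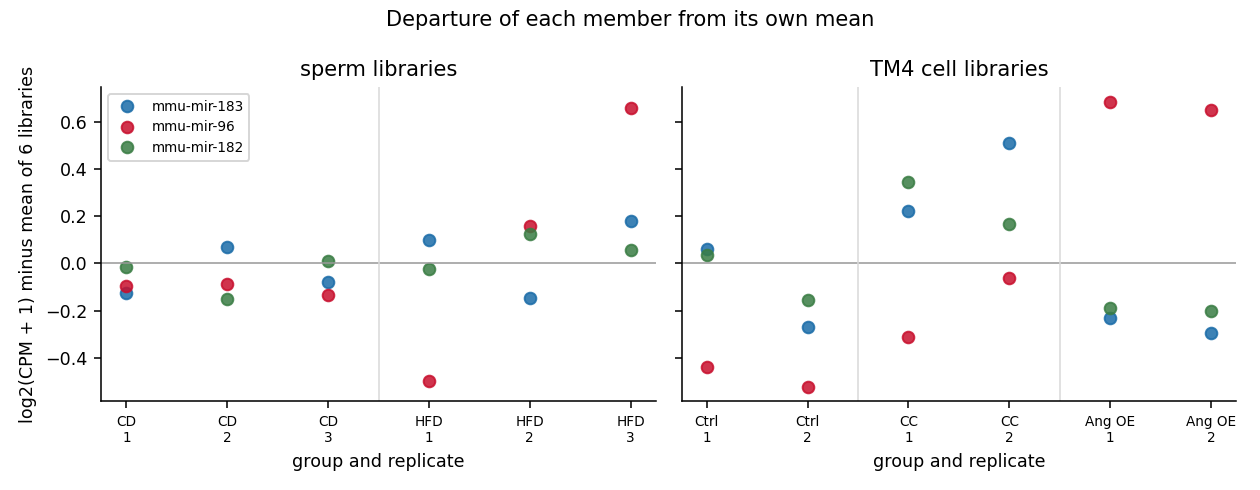
Departure of log2(CPM + 1) of each member from its own mean over the 6 libraries of a source, for sperm on the left and TM4 cells on the right. In TM4 cells mir-183 and mir-182 are both highest in CC and lie close together in Ang OE, where mir-96 is on the other side of the mean. In sperm mir-96 shows the widest departures, in HFD replicates 1 and 3.

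The hairpins whose levels were most like those of the members differed between members and sources. In sperm the nearest to mir-183 were mir-331 (r = 0.98), mir-133a-1 (0.95) and mir-133a-2 (0.95), at means of 11.3, 18.6 and 18.6 CPM. The nearest to mir-96 were mir-29c, mir-30e and mir-141, each at r = 0.98 or 0.99, and mir-141 is one of the epithelial hairpins. The nearest to mir-182 were let-7f-2 (0.75), mir-185 (0.75) and let-7f-1 (0.74). Among 256 hairpins ordered by likeness, mir-182 was number 242 for mir-183 and number 86 for mir-96, and mir-96 was number 145 for mir-183 and number 45 for mir-182. In sperm no member was among the 3 nearest of another.

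In TM4 cells mir-152 (r = 0.98), mir-219a-1 (0.89) and mir-22 (0.88) were nearest to mir-183, and mir-219a-1 (0.93), mir-152 (0.93) and mir-6539 (0.88) were nearest to mir-182, so that 2 of 3 were shared. Among 306 hairpins, mir-182 was number 9 for mir-183 and mir-183 was number 11 for mir-182. mir-96 was number 218 for mir-183 and number 224 for mir-182, an order that carries the separation of the Ang OE libraries, and for the same reason no nearest hairpins are given for mir-96 in TM4 cells. These orders are over 6 libraries that share their source and are given as a description.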

How the data were processed

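Small RNA libraries of mouse sperm and TM4 cells were trimmed by the authors with Trimmomatic 0.40 after FastQC 0.12.0, and reads of the stated lengths were annotated with SPORTS1.1 on mm10, with a mismatch allowed. The deposited tables hold estimated counts per miRBase hairpin, not normalized, with reads of several hairpins divided among them. Reads with and without a genome match were added, and no read of a member lacked one. Counts were rounded and tested with edgeR 4.0.16 (R 4.3.3) by the quasi-likelihood test with TMM scaling, on hairpins that reached 10 reads in 3 libraries for the diets or in 2 otherwise, in models of the 6 sperm, 6 TM4 or all 12 libraries. Benjamini-Hochberg adjustment ran over all hairpins of a comparison, which were called at an adjusted p under 0.05. SEs were derived from the fold change and its F statistic, and approximate 95% intervals from the SEs. The intervals use a normal approximation, which makes them too narrow for so few libraries. The authors used DESeq2, which is an alternative here (1.42.0), and ComBat-seq (sva 3.50.0). They do not name its batches, and the replicate number was assumed here. Ratios and correlations, the latter on log2(CPM + 1), were tested by exact 2-sided permutation. Other alternatives were other library sizes and filters, genome-matched reads alone, a pseudocount of 0.1, the replicate number as a block, the 2 compared groups alone and each library left out. Named hairpins are the members, the 3 most like each by Pearson's r among hairpins with a mean of at least 100 reads (not for mir-96 in TM4 cells, whose libraries fell into separate clusters), seed mates and the most abundant or moving listed hairpins. The members were found by name, but the cluster was picked for description, and the lists were chosen, with earlier results of these data known. Wilson intervals cover counting error only. Figures used matplotlib 3.10.9.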

Additional observations from a re-analysis of the deposited data

How the results depend on the processing

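Of 228 alternative fold changes of the members, 168 kept their direction and their side of the threshold, as did 33 of 36 correlations, 56 of 60 ratio tests and, of the ratio fits in edgeR added after seeing the data, 98 of 108. For HFD against CD, mir-183 turned to 0.0041 with DESeq2, 0.093 with all miRBase reads, 0.18 with the clean reads without rRNA, 0.0072 with no filter and 0.042 with a filter of 100 reads, and mir-182 to 0.016, 0.10, 0.19, 0.017 and 0.052. For CC against Ctrl, mir-183 lost its call with ComBat-seq (0.49), and mir-182 gained one with no filter (0.36) and with ComBat-seq (0.33). For Ang OE against Ctrl, mir-183 turned to -0.17 with all miRBase reads, -0.030 with the clean reads and -0.0019 with 100 reads, and mir-182 to -0.14 and -0.0066 with all miRBase reads and with the clean reads. For Ang OE against CC, mir-182 gained a call with DESeq2 (-0.28), all miRBase reads (-0.45), the clean reads (-0.34) and 100 reads (-0.30). For CD sperm against Ctrl TM4 cells, mir-96 turned to 0.30 with DESeq2, 0.033 with 100 reads and 0.20 with both groups alone, and was called at -1.14 with all miRBase reads and -1.38 with the clean reads. There mir-182 turned to 0.37, 0.10 and 0.27 and was called at -1.08 and -1.31, and in the other direction at 0.46 without CD replicate 2. The r of mir-183 and mir-182 in sperm turned to 0.20 with the clean reads. The cause of these changes was not tested.

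With each library left out in turn, where a lone library of a group is assumed to vary like the others, the fold changes ranged as follows. HFD against CD gave -0.046 to 0.073 for mir-183, -0.043 to 0.52 for mir-96 and -0.13 to 0.14 for mir-182. For mir-183, CC against Ctrl gave 0.34 to 0.63, Ang OE against Ctrl -0.017 to 0.26, and Ang OE against CC -0.52 to -0.23. For mir-182 these were 0.20 to 0.42, 0.071 to 0.21 and -0.28 to -0.11, and for mir-96 CC against Ctrl gave 0.19 to 0.40. CD sperm against Ctrl TM4 cells gave -0.23 to 0.33 for mir-96 and -0.18 to 0.46 for mir-182. In sperm, r ranged from -0.71 to 0.050 for mir-183 with mir-182 (positive without HFD replicate 2) and from -0.75 to 0.65 for mir-183 with mir-96 (negative without HFD replicate 3). The diet difference of the ratios ranged from -0.12 to 0.082 for mir-182 to mir-183, -0.090 to 0.46 for mir-96 to mir-183 and -0.17 to 0.38 for mir-96 to mir-182. In the ratio fits the same differences ranged from -0.12 to 0.088, -0.022 to 0.46 and -0.15 to 0.41. There mir-182 to mir-183 ranged from -0.39 to 0.073 for CC, from -0.048 to 0.088 for Ang OE and from -0.055 to 0.41 between them, and mir-96 to mir-182 from -0.23 to 0.20 for CC.

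The replicate number was also fitted as a replicate block. Same-numbered libraries deviated together in Ang OE and CC (r of 0.35) but not for the diets (-0.41, -0.39 and 0.09), CC and Ctrl (-0.11) or Ang OE and Ctrl (-0.20). The labels give only a number, so the numbers were not taken as pairs. The block left the members' calls as they were (mir-183 in CC at 0.48, adjusted p = 0.00101 by edgeR; mir-96 in Ang OE at 1.43) and moved the hairpins called for CC from 22 to 35, while ComBat-seq gave 39 and leaving out either CC library 0. No other alternative moved a count of calls by over 1.5 times except DESeq2 for the diets, with 8, and a filter of 100 reads for CD sperm against Ctrl TM4 cells, with 340 of 396 hairpins tested against 511 of 648. Depth limits mir-96 most, with 510 to 1232 reads per sperm library.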
